A study of Mus musculus with 4 samples.

Results

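The genes described here are 49 genes of mitosis and the spindle, measured by single-cell RNA sequencing in hematopoietic stem and progenitor cells (HSPCs) of young and old mice. They were chosen by symbol, as the rows of the deposited gene tables that carry the names of known mitotic genes, and each of the 49 symbols matched 1 of the 28692 genes listed, in all 4 pools. By their known roles they were split into 6 groups, namely 11 cyclins and kinases with their phosphatases, 6 genes of the anaphase-promoting complex and the spindle checkpoint, 9 of the centromere and kinetochore, 12 of the spindle and its motors, 6 of cytokinesis and 5 of the chromosomes and others.

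The cells came from the bone marrow of male C57BL/6-CD45.2 mice with no transgene and no treatment, aged 2 to 3 months (young) or 17 to 18 months (old), and were depleted of lineage-positive cells and sorted as Lin- Sca1+ cKit+ Flt3-. Each pool combined 2 or 3 mice, and there were 2 young pools (young A and young B) and 2 old pools (old A and old B), the A pools captured and sequenced at the HalioDX facility and the B pools at TGML. The GEO descriptions of young B and old A name the opposite age, so the ages used here are those of the sample titles and source names. Mice cannot be told apart within a pool, so that n was 2 pools per age throughout and each p-value, unless stated otherwise below, measures the spread between pools. In the edgeR fits used below, that spread was estimated for each gene with the help of the other genes, since so few pools give little of it per gene. The droplet libraries count unique molecular identifiers (UMIs) at the 3' end of transcripts, and levels are given as UMIs per 1000000 UMIs of the pool or of the named cells (CPM), a scale with no division by gene length on which levels of different genes were not compared.

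After removal of cells outside 2 SD of the mean log UMI count, 5189 young A, 2244 young B, 3328 old A and 4154 old B cells remained, 14915 in all, with median UMI counts between 5674 and 6719 per cell and pool totals between 16399999 and 36446168 UMIs. Between 10 and 29 cell barcodes were shared by each pair of pools. The stem and progenitor marker Kit was detected in 39.6% to 59.8% of cells and Ly6a (Sca1) in 55.04% to 80.04%. Flt3, which the sort excludes, was still detected in 23.7% of young A, 9.80% of young B, 5.65% of old A and 1.88% of old B cells. Genes of other lineages differed between pools as well. All 5 mast cell and basophil genes had lower fitted levels in the old pools, with summed levels of 2057 and 2184 CPM in young A and B against 958 and 634 CPM in old A and B, and the 5 B and plasma cell genes summed to 357 to 476 CPM in the young and 1932 to 3932 CPM in the old pools, with Ighg2b at 0 in both young pools. Most of the B and plasma cell sum was Igkc, at 3143 CPM in old A and 1670 CPM in old B. Unlike the rest of that list, Cd79b was not higher in the old pools (45.0 and 47.4 CPM in young A and B, 41.8 and 46.0 CPM in old A and B). The part of these lineage differences in the results below was tested only by leaving out cells, as given there.

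A cell enters mitosis when Cdk1 bound to B-type cyclins is switched on. Microtubules then form the spindle, kinetochores tie the chromosomes to it, and the spindle checkpoint holds back the anaphase-promoting complex until all chromosomes are attached, after which cyclin B is degraded and the cell is cut apart at the midzone. The transcripts of most of these genes build up in G2 and M phase, and most hematopoietic stem cells are out of cycle while their progenitors divide, so that mitotic transcripts in such a sort come from a minority of the cells.

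Promoters of genes of this kind often hold a cell cycle homology region (letters TTTGAA in most genes and the variant TTTAAA in some), read by the complexes that repress them in resting cells and activate them in G2, together with CCAAT boxes. Both were searched by their letters on both strands, where TTTGAA reads as TTCAAA on the other strand and CCAAT as ATTGG, while the variant TTTAAA reads the same on both. Each was searched separately, so matches may share bases, in RefSeq windows of 300 bases (250 before to 50 after the start of a gene, GRCm38.p6). RefSeq entries were found for 40 of the 49 genes, with 42 windows. The 9 genes without an entry are Ccna2, Cdc25c, Aurkb, Pbk, Spc24, Tpx2, Kif20a, Cdca2 and Fam64a. TTTGAA or TTCAAA was present in 78.6% of the windows of the mitosis and spindle genes, against 17.9% of all 32851 windows and 10.7% of those of 30 DNA replication genes. The windows of 32 other mitotic genes, used further on to define dividing cells, held it in 61.5%, so that it was frequent in mitotic genes outside the 49 too. Addition of TTTAAA raised the share to 85.7%, against 27.6% of all windows. CCAAT or ATTGG was present in 78.6% of the windows against 37.4% of all windows, in 67.9% of those of the DNA replication genes and in 65.4% of those of the other mitotic genes. Both kinds of letters stood together in 73.8% of the windows against 10.7% of all and 50% of those of the other mitotic genes. Of the 43 matches to TTTGAA or TTCAAA, 65.1% began within 60 bases before to 30 bases after the start, against 24.8% of the matches in all windows. The 150 bases before the start of 5 of the genes, chosen from the cyclins and kinases, the anaphase-promoting complex genes and the chromosome group, show this arrangement, on the strand of the gene and with the matches in capitals, at chr13:100786487-100786636 (minus strand) for Ccnb1, chr10:69352913-69353062 (minus) for Cdk1, chr4:118437344-118437493 (minus) for Cdc20, chr2:164769779-164769928 (plus) for Ube2c and chr11:99024190-99024339 (minus) for Top2a.
Ccnb1: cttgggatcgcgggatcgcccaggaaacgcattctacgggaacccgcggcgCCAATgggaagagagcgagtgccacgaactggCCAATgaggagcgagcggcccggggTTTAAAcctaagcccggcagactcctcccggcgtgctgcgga
Cdk1: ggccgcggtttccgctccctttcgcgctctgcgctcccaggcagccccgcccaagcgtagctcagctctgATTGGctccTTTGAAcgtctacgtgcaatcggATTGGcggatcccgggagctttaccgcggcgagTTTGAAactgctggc
Cdc20: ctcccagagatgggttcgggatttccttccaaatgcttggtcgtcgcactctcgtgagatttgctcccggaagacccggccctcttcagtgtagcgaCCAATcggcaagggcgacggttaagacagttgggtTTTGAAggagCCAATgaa
Ube2c: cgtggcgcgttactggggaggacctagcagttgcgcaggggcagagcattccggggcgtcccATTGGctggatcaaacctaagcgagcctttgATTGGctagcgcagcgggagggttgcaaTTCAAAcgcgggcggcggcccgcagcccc
Top2a: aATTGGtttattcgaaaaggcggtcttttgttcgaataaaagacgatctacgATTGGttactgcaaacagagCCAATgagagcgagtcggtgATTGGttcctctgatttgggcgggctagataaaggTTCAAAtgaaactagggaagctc

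Cdk1 has 2 TTTGAA matches in this stretch, the nearer one beginning 15 bases before the start. Ccnb1 has TTTAAA 42 bases before the start in place of TTTGAA, and Top2a has TTCAAA 23 bases before the start with 4 CCAAT or ATTGG matches upstream of it. A match is a description of the letters and not of a bound site. Starts here are those of RefSeq. By the GENCODE M21 positions used elsewhere for the genes, those of Ccnb1, Cdk1, Cdc20 and Ube2c lie further upstream, within the stretch shown.

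The first comparison asked whether the mitosis and spindle genes differ between young and old HSPCs when each pool is taken as a whole. All 49 genes had a lower fitted level in the old pools, with log2 differences (old against young) between -1.20 and -0.43 and a median of -0.74, where the median over all 13555 genes tested was 0.01. Summed over the 49 genes, the level was 1918 CPM in young A, 1544 in young B, 957 in old A and 1159 in old B. Both old pools thus lay below both young pools, by 2.00-fold on the A platform and 1.33-fold on the B platform. Over whole pools, fewer cells that express a gene and less of its RNA per cell cannot be told apart.

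By the test over all genes (edgeR quasi-likelihood, platform as replicate block, Benjamini-Hochberg adjusted p under 0.05), 1 of the 49, Kif23, fell in the old pools, where 0.428% of all genes tested were called lower. At an unadjusted p under 0.05, 35 of the 49 were lower against 5.92% of all genes, a count that was 1 without young A, 7 without young B, 2 without old A, 25 without old B and 9 without the block. For 43 of the 49, both old pools lay below both young pools in CPM, which held for 13.6% of all genes. The other 6 genes, whose groups overlapped, were Plk1, Nek2, Ccna2, Bub1b, Racgap1 and Ect2. Within platforms, the old pool was lower for 49 genes on A and for 47 on B, where 38.1% and 50.7% of all genes were. When each cell was thinned to 3000 UMIs, the share of cells with a UMI was lower in both old pools for 36 of the 49, against 13% of all genes.

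**Figure D1:**
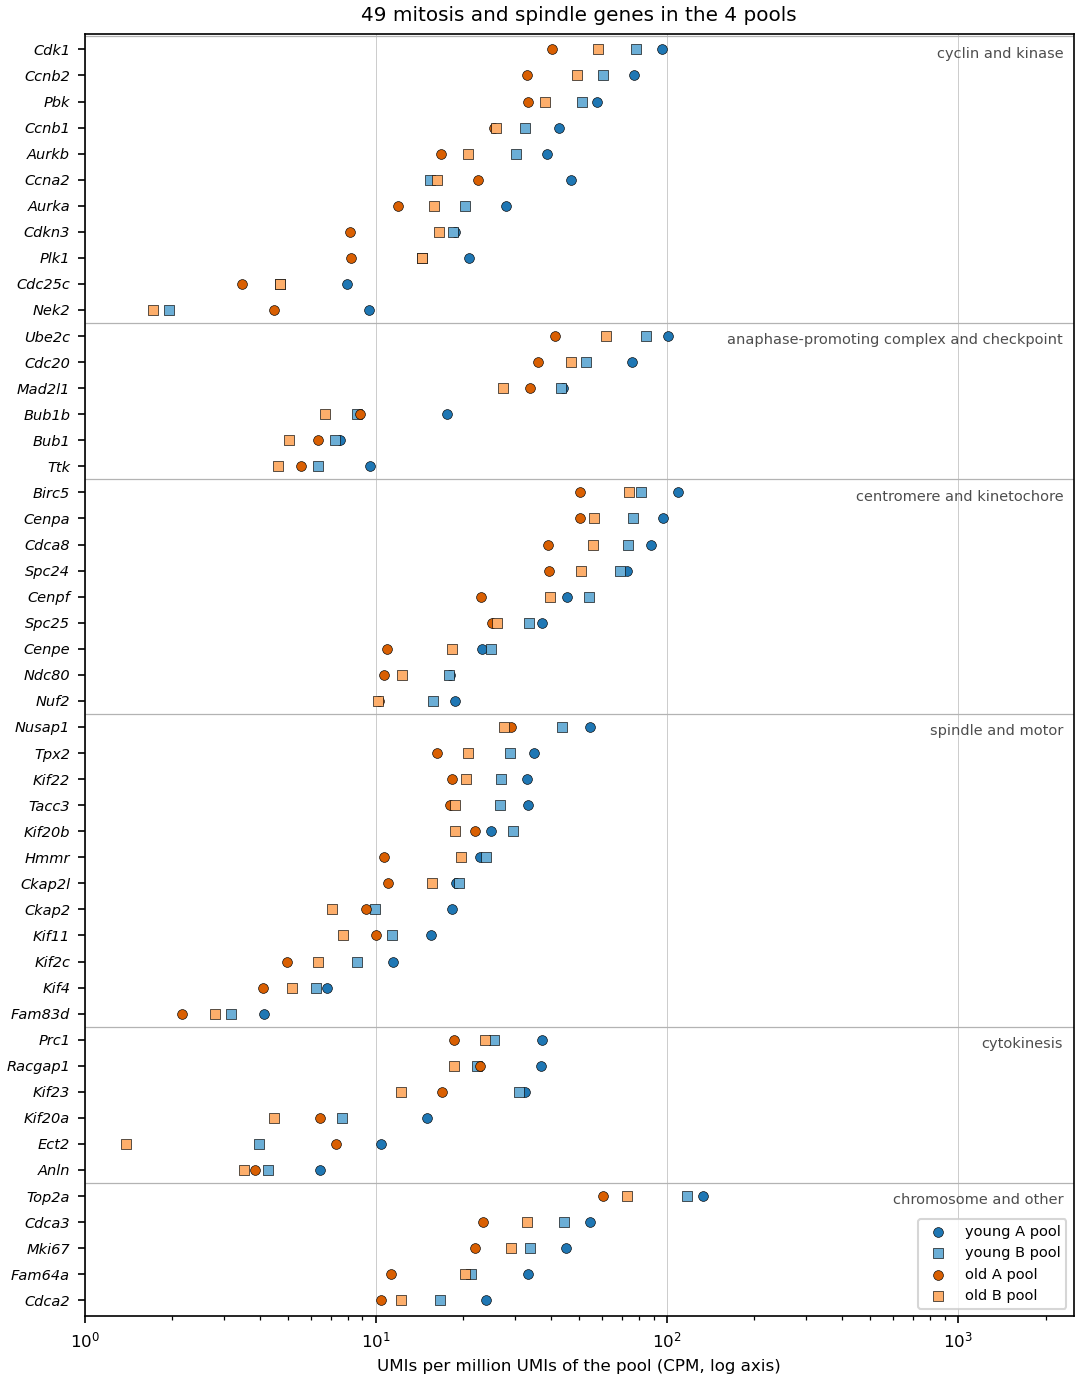
Level of each of the 49 genes in the 4 pools (horizontal log axis, CPM), with genes on the vertical axis in their 6 role groups. Blue marks are young and orange marks old pools, circles the A and squares the B platform. For 43 genes both orange marks lie to the left of both blue marks, and for Nek2 and Ect2 the 2 squares lie far to the left of the circles.

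Among the cyclins and kinases, Cdk1, the kinase that drives entry into mitosis (chr10:69335146-69352938), was at 95.9 CPM in young A, 78.4 in young B, 40.2 in old A and 57.8 in old B. Both old pools were below both young pools, with a log2 difference of -0.90 (SE 0.270, edgeR adjusted p = 0.199). Ccnb2, a B-type cyclin that activates Cdk1, had 77.3, 60.5, 33.2 and 49.2 CPM in the same order, again without overlap of the ages (log2 -0.81, SE 0.289, edgeR adjusted p = 0.274). The other B-type cyclin gene, Ccnb1, whose promoter is shown above, had 42.7, 32.6, 25.5 and 25.9 CPM (log2 -0.59, SE 0.1997, edgeR adjusted p = 0.252). The 11 genes of the group summed to 444 and 328 CPM in young A and B and to 208 and 261 in old A and B. For 8 of the 11 both old pools lay below both young pools, as for 13.6% of all genes. Cdc25c is counted among the 8 though it was nearly level on B, at 4.70 CPM in young B and 4.69 in old B.

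Ube2c, the ubiquitin-conjugating enzyme that works with the anaphase-promoting complex, was at 101 CPM in young A, 84.5 in young B, 41.2 in old A and 61.8 in old B (log2 -0.93, SE 0.276, edgeR adjusted p = 0.197). Cdc20, the activator that the spindle checkpoint restrains, had 76.1, 52.6, 35.98 and 46.99 CPM (log2 -0.67, SE 0.287, edgeR adjusted p = 0.356). In both genes the distance between the ages was larger on A than on B, 2.46-fold against 1.37-fold for Ube2c and 2.11-fold against 1.12-fold for Cdc20. The checkpoint genes Mad2l1, Bub1, Bub1b and Ttk had log2 differences between -0.74 and -0.43, of which Bub1, at -0.43, was nearest to 0 among all 49.

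All 9 centromere and kinetochore genes had both old pools below both young pools, where 13.6% of all genes did. Cenpa, the histone H3 variant that marks centromeres, was at 97.0 CPM in young A, 76.6 in young B, 50.5 in old A and 56.2 in old B (log2 -0.75, SE 0.214, edgeR adjusted p = 0.185). Birc5 (survivin), a subunit of the chromosomal passenger complex, had 109, 81.3, 50.2 and 74.3 CPM, with old B close below young B (log2 -0.68, SE 0.305, edgeR adjusted p = 0.380). Ndc80, Nuf2, Spc24 and Spc25 form 1 complex that binds microtubules at the kinetochore, and their log2 differences were -0.70, -0.79, -0.72 and -0.52.

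In the spindle and motor group both old pools lay below both young pools for all 12 genes, where 13.6% of all genes did so. Nusap1, which bundles spindle microtubules, was at 54.3 CPM in young A, 43.6 in young B, 29.2 in old A and 27.5 in old B (log2 -0.83, SE 0.176, edgeR adjusted p = 0.104). Tpx2, which activates Aurora A on the spindle, had 35.1, 29.0, 16.2 and 20.8 CPM (log2 -0.85, SE 0.238, edgeR adjusted p = 0.178). The kinesins of the group, Kif11, Kif22, Kif2c, Kif4 and Kif20b, ranged from -0.88 for Kif2c to -0.48 for Kif20b on the log2 scale.

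Kif23 and Racgap1, whose products together form the centralspindlin complex of the midzone, differed in size. Kif23 (chr9:61915905-61946774, minus strand, with no other annotated gene over it) was at 32.6 CPM in young A, 31.1 in young B, 16.9 in old A and 12.2 in old B, and its fall (log2 -1.20, SE 0.173, edgeR adjusted p = 0.0468) was the only one past the threshold. Without any 1 of the 4 pools its adjusted p was between 0.289 and 0.629 at log2 differences of -1.29 to -1.14. Racgap1 had 36.9, 22.3, 22.8 and 18.5 CPM, with young B below old A (log2 -0.53, SE 0.205, edgeR adjusted p = 0.303). Prc1, which bundles the microtubules of the midzone, had 37.3, 25.5, 18.6 and 23.8 CPM (log2 -0.60, SE 0.285, edgeR adjusted p = 0.403).

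Top2a, the topoisomerase that untangles sister chromatids, was at 133 CPM in young A, 117 in young B, 60.6 in old A and 72.9 in old B, so that every old pool was well below every young pool (log2 -0.96, SE 0.211, edgeR adjusted p = 0.111). Cdca3, needed for entry into mitosis, had 54.6, 44.4, 23.3 and 33.0 CPM (log2 -0.88, SE 0.265, edgeR adjusted p = 0.20). The 5 genes of the chromosome group, which include the proliferation marker Mki67, summed to 290 and 234 CPM in the young and 127 and 168 CPM in the old pools.

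For 5 genes, Nek2, Ect2, Ccna2, Bub1b and Racgap1, named here after their values were seen, the mean log2 ratio of CPM between the platforms was larger than that between the ages. For Bub1b (0.72 against 0.68) and Racgap1 (0.51 against 0.48) the margin was small. Nek2, a kinase of centrosome separation, was at 9.47 CPM in young A and 4.47 in old A but at 1.95 in young B and 1.71 in old B. Ect2, the exchange factor that activates RhoA at the midzone, had 10.4 and 7.31 CPM in young A and old A against 3.96 and 1.38 in young B and old B. These 2 genes were more than 2-fold higher on A than on B at both ages, and Ccna2, the cyclin of S and G2 phase, was so only in the young pools (46.7, 15.4, 22.4 and 16.3 CPM in young A, young B, old A and old B).

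To ask how many cells carry these transcripts, a dividing class was defined from 32 mitotic genes that are not among the 49, as the cells with a UMI of at least 6 of them. The class held 1295 of the 14915 cells (8.68%). Its share was 12.1% of young A (95% Clopper-Pearson interval 11.3 to 13.1), 9.22% of young B (8.06 to 10.5), 5.23% of old A (4.50 to 6.04) and 6.84% of old B (6.09 to 7.65), intervals that cover counting error only. Both old pools lay below both young pools, by 6.91 percentage points on A and 2.39 on B, and an exact two-sided permutation test gave p = 0.333, the smallest that 2 pools against 2 allow. With cells thinned to 3000 UMIs and a minimum of 3 genes the shares were 11.3%, 6.97%, 5.62% and 5.40%. The filter on UMI counts removed cells of the class from every pool. Without it the class held 817, 266, 248 and 333 cells, against 630, 207, 174 and 284 with it. The shares without it were 15.04%, 11.4%, 7.15% and 7.69%. At a minimum of 10 genes, with the filter, they were 7.54%, 5.53%, 3.28% and 4.57%. The intervals of the B pools then overlapped (4.62 to 6.55 and 3.96 to 5.25). The cut runs through a continuum, since 698 cells had between 4 and 7 of the 32 genes.

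The class, chosen without them, held most of the 49 genes' transcripts. Of all their UMIs, 78.1% in young A, 79.3% in young B, 67.5% in old A and 80.1% in old B fell in it. A cell of the class had a median of 30 of the 49 genes (interquartile range 22 to 37) and any other cell a median of 1, with median UMI counts of 10508 to 12687 in the class and 5577 to 6510 in the other cells. Top2a was detected in 92.0% to 97.1% of cells in the class and in 7.55% to 15.9% of the others, and Birc5 in 92.4% to 95.4% against 4.03% to 11.8%. For 45 of the 49 genes the class held over 50% of the UMIs in every pool.

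A middle set of cells had DNA replication transcripts (at least 8 of 30 genes) without belonging to the dividing class. The summed level of the 49 genes was 7612 to 8562 CPM in the class, 635 to 776 CPM in the replication-only cells and 146 to 352 CPM in the remaining cells, of which 55.1% to 78.2% still had a UMI of at least 1 of the genes. The replication-only cells made up 25.5% of young A, 22.8% of young B, 14.6% of old A and 14.2% of old B. The genes differed in how far they were already present in them. The log2 level in the class minus that in the replication-only cells was taken with 1 CPM added to each level. It was 5.33 for Ube2c, 5.20 for Hmmr, 4.92 for Cenpf and 4.74 for Fam64a. For Mad2l1 it was 1.94, for Spc24 and Ckap2 2.34 and for Tacc3 2.37, with a median of 3.55 over the 49. The added 1 CPM lowers the value of genes near 0 in the replication-only cells, such as Fam83d (0.158 to 0.968 CPM there). Free RNA in the droplets also adds UMIs to cells that do not express a gene, and its part in the low levels was not tested.

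**Figure D2:**
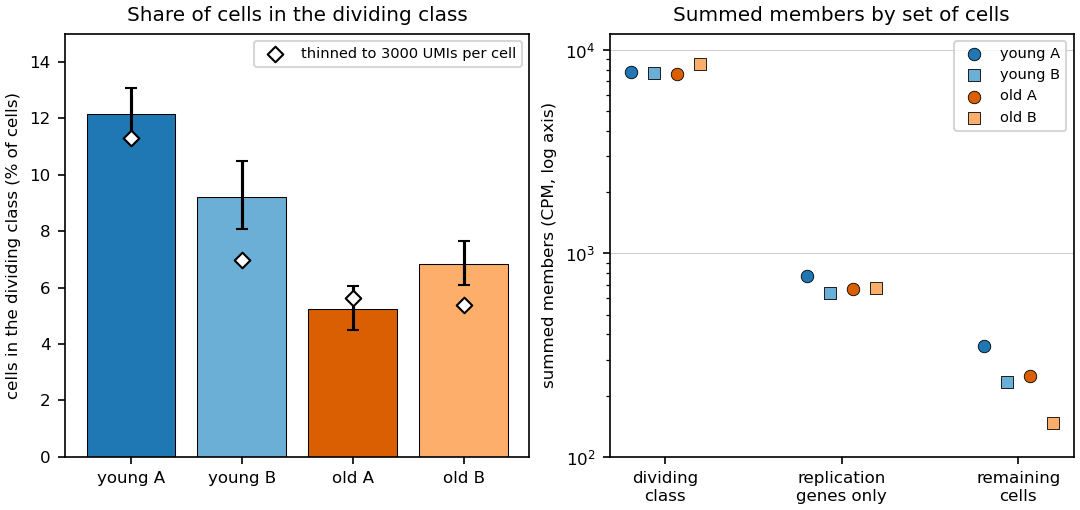
Left, share of cells in the dividing class of each pool (percent of cells, bars from 0, error bars 95% Clopper-Pearson intervals) with the value after thinning to 3000 UMIs per cell as open diamonds. Right, summed level of the 49 genes (CPM, log axis) in the dividing class, in cells with replication genes only and in the remaining cells, where the pools lie close together in the class at 7612 to 8562 CPM and spread from 146 to 352 CPM in the remaining cells.

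Within the dividing class the summed level did not separate the ages. It was 7807 CPM in young A, 7736 in young B, 7612 in old A and 8562 in old B, and the UMIs of the 49 genes per class cell were 86.7, 97.0, 77.2 and 109 (exact two-sided permutation test, p = 1). Of the 49 genes 0 were called in either direction by edgeR, where 0.849% of the 10364 genes tested were, and 0 had an unadjusted p under 0.05, where 6.87% of genes did. The log2 differences ranged from -0.41 for Kif23 to 0.34, with 22 below and 27 above 0 and a median of 0.01. Cdk1 had -0.10 (SE 0.249) and Top2a -0.14 (SE 0.236), and Kif23, at about 2 times its SE of 0.205, had an edgeR adjusted p of 0.823, so that differences of that size were not detectable in the class. Leaving out old A or old B moved the median to 0.16 or -0.16. Cells entered the class by detection of other mitotic genes, some of which varied with the 49 across cells. Casc5 and Knstrn, for example, had a mean r of 0.553 and 0.547 with the summed level. The rule itself may thus bring the level per class cell closer between pools, and its part was not tested.

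Outside the dividing class, 48 of the genes could be tested (all but Fam83d), and 47 had a lower fitted level in the old pools, with a median log2 difference of -0.61. By edgeR 0 were called, where 0.663% of the 13417 genes tested were called lower, and 17 were lower at an unadjusted p under 0.05, where 5.74% of genes were. That count was 2, 5, 2 and 3 without young A, young B, old A and old B. Top2a had -1.02 (SE 0.184, edgeR adjusted p = 0.0562), Cdk1 -0.98 (SE 0.179, edgeR adjusted p = 0.0587) and Kif23 -1.33 (SE 0.272, edgeR adjusted p = 0.0736). The cells outside the class still include those with replication genes, whose share was lower in both old pools. In these replication-only cells the summed level was 776, 635, 671 and 675 CPM in young A, young B, old A and old B. In the remaining cells it was 352, 234, 249 and 146 CPM in the same order. Within each of these 2 sets the ages thus overlapped, with old A above young B in both. Within platforms, the old pool was lower on A and on B in the remaining cells. In the replication-only cells it was lower on A and higher on B.

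**Figure D3:**
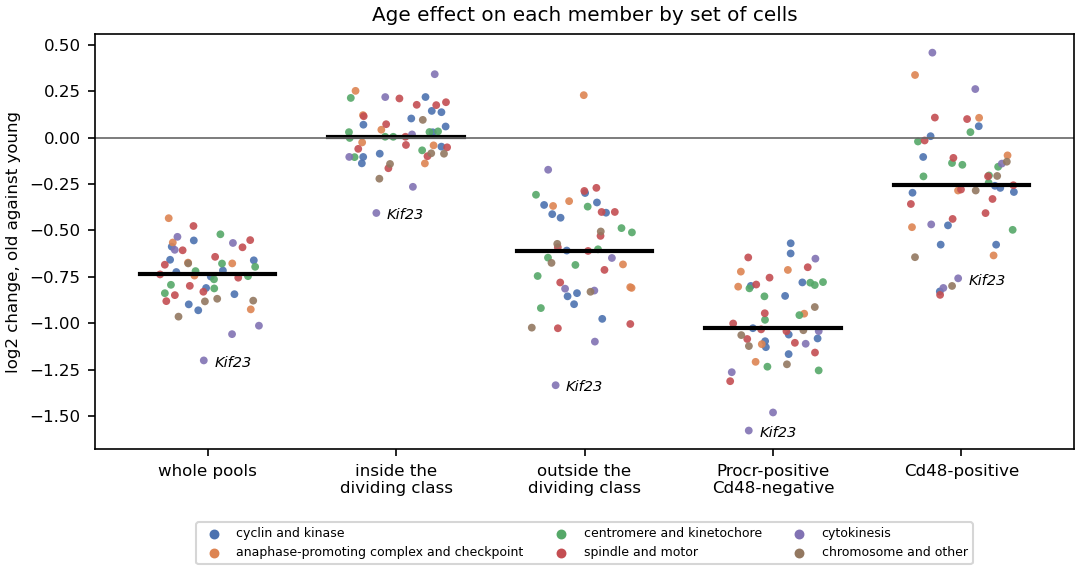
Log2 difference, old against young, of each of the 49 genes (points, coloured by role group) in 5 sets of cells, with the median of the genes as a black bar. Outside the dividing class the points and the bar cover 48 genes, all but Fam83d. The bars stand at -0.74 over whole pools, 0.01 inside the dividing class, -0.61 outside it, -1.03 in Procr-positive Cd48-negative cells and -0.26 in Cd48-positive cells, and Kif23 is labelled in each set.

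The sort holds stem cells and early progenitors, and transcripts were used to separate its ends. Procr (EPCR) marks hematopoietic stem cells and Cd48 their more committed progeny, so cells with a Procr UMI and no Cd48 UMI were compared with cells that had a Cd48 UMI. The first gate held 1920, 968, 1947 and 2771 cells of young A, young B, old A and old B and the second 1232, 503, 282 and 164. Median UMI counts were 5778 to 6701 in the first gate and 7211 to 10020 in the second. Cd48 itself was at 76.8, 69.5, 31.6 and 11.6 CPM in the 4 pools, and Procr at 96.4, 117, 187 and 201 CPM. The first gate held 37.0%, 43.1%, 58.5% and 66.7% of the cells of young A, young B, old A and old B. Depth thus moves with the gates, and the levels of both gating genes differed with age, so that a gate may admit different cells at the 2 ages.

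In Procr-positive Cd48-negative cells the dividing class made up 4.53% of young A, 4.13% of young B, 1.80% of old A and 2.85% of old B (exact two-sided permutation test, p = 0.333). All 49 genes had a lower fitted level in the old pools, with a median log2 difference of -1.03 and a range of -1.58 (Kif23) to -0.57. None of the 49 passed the adjusted threshold of edgeR (0 called, where 0.248% of the 12508 genes tested were called lower, smallest adjusted p 0.0528 for Top2a), and 44 were lower at an unadjusted p under 0.05, where 5.2% of genes were. That count was 18, 7, 6 and 29 without young A, young B, old A and old B. Top2a was at 62.2 and 67.3 CPM in young A and B and at 25.5 and 31.1 CPM in old A and B.

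In Cd48-positive cells the dividing class made up 25.8% of young A, 20.5% of young B, 17.7% of old A and 21.95% of old B, and the old pool was lower by 8.08 percentage points on A and higher by 1.47 on B (exact two-sided permutation test, p = 0.667). The median log2 difference of the 49 genes was -0.26, with 40 below 0. By edgeR 0 were called lower, as were 0% of the 10512 genes tested, and 4 were lower at an unadjusted p under 0.05, where 1.78% of genes were. Top2a was at 211, 187, 158 and 169 CPM in young A, young B, old A and old B. Cells in neither gate were 39.3%, 34.4%, 33.02% and 29.3% of the pools in the same order. The dividing class made up 11.05%, 8.28%, 8.098% and 13.9% of them. Their summed level of the mitosis and spindle genes was 1939, 1528, 1478 and 2349 CPM. By both measures old A lay below and old B above both young pools, so that these cells showed no common direction with age.

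The difference of the age effect between the gates was then tested on the 8 sums with pool as block. The p-values of this test measure how far the contrast between the gates varies between pools of the same age. The difference was above 0 for all 49 genes, with a median of 0.69, meaning that the old-against-young difference was less negative in the Cd48-positive cells. The threshold was passed by 14 of the 49, where 1.35% of the 12631 genes tested did in that direction. These were 3 cyclins and kinases (Cdk1, Aurkb and Pbk), Mad2l1 of the checkpoint, 6 of the 9 centromere and kinetochore genes (Cenpa, Birc5, Cdca8, Spc24, Cenpe and Nuf2), Nusap1 of the spindle, and Top2a, Cdca3 and Mki67. Pbk, a kinase active in mitosis, had the smallest p (log2 1.12, SE 0.142, edgeR adjusted p = 0.000209). Its level in Procr-positive Cd48-negative cells was 30.6 and 28.5 CPM in young A and B against 13.1 and 14.4 in old A and B, while in Cd48-positive cells it was 84.3, 82.0, 79.7 and 88.1 CPM in the same order of pools. The values of Pbk in the second gate overlapped between the ages and those in the first did not. The count of 14 was 5 without young B, and with cells thinned to 3000 UMIs before gating it was 2, while the difference of all 14 stayed above 0 in each of these fits. Of the 48 genes tested with thinned cells 7 had a difference below 0.

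**Figure D4:**
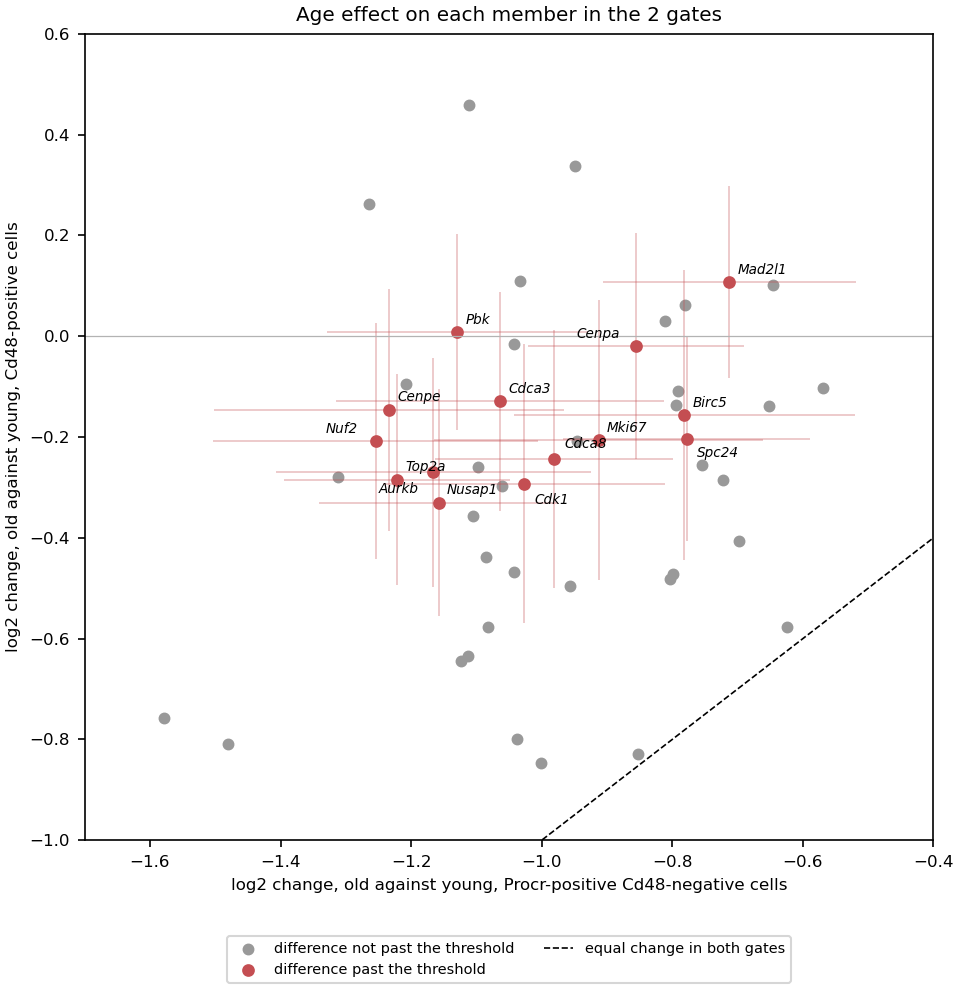
Log2 difference, old against young, of each of the 49 genes in Procr-positive Cd48-negative cells (horizontal) and in Cd48-positive cells (vertical), with red points and SE bars for the 14 genes whose difference between the gates passed the threshold. Points above the dashed line of equal change had a less negative difference in Cd48-positive cells, and all 49 lie above it.

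Members of the same pathway from other lists were read beside these values. Of 16 genes listed for the anaphase-promoting complex (14 subunits, the co-activator Fzr1 and the ubiquitin-conjugating enzyme Ube2s) 0 were lower at an unadjusted p under 0.05 over whole pools (median log2 -0.06), where 5.92% of all genes were, against 4 of 15 genes of cohesin and condensin (median -0.24), 4 of 12 regulators of entry into mitosis (median -0.25) and 1 of 13 transcription regulators of G2 and M genes (median -0.17). The 32 genes that define the dividing class had a median of -0.72, with 22 lower at that p. The 30 DNA replication genes had a median of -0.71, with 25 lower, and by edgeR 0 genes of these lists passed the adjusted threshold over whole pools. Without young A, young B, old A and old B the count of 22 was 1, 6, 0 and 4 and that of 25 was 1, 2, 7 and 10, while the counts of cohesin and condensin and of the entry regulators lay between 0 and 2. Outside the dividing class Mcm5, a subunit of the replicative helicase, fell (log2 -0.96, SE 0.157, edgeR adjusted p = 0.0447). In the test between the gates, where 1.35% of all genes passed as higher, 0 of the 32 genes that define the class passed (median 0.66, with 30 above 0) and 15 of the 30 replication genes did, among them Mcm5, Tipin, Ung, Rrm2 and Fen1, as did Cks2 and Cks1b, small subunits that bind Cdk1, and the condensin subunit Smc2. Each of these differences was above 0. The count of 15 was 5, 9, 19 and 14 without young A, young B, old A and old B, and 2 with thinned cells.

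The share of the dividing class was also read within cells that carry lineage transcripts, where the ages separated in some lists and not in others. Cells with at least 2 of the 5 mast cell and basophil genes were in the dividing class in 22.2% of cases in young A, 29.7% in young B, 13.4% in old A and 17.5% in old B, and these cells were 25.5%, 8.11%, 17.1% and 2.48% of their pools. Cells under the B and plasma cell list were in the class in 17.1%, 13.9%, 6.13% and 10.4% of cases, again with both old pools lower. The ages overlapped under the neutrophil list (17.3%, 16.4%, 7.50% and 18.4%, with old B highest), the megakaryocyte list (17.2%, 13.4%, 10.5% and 15.6%) and the erythroid list (24.9%, 19.7%, 27.97% and 16.4%, with old A highest), and the lymphoid list held at most 13 cells in any pool. The neutrophil list took in 45.6%, 30.7%, 48.9% and 9.53% of the pools, so that its cells may differ in kind between pools. Prtn3, a gene of that list, was detected in 85% to 98% of all cells of each pool. Cells under none of the 6 lineage lists were in the class in 5.27%, 4.28%, 1.32% and 3.39% of cases, so that the old pools were below the young pools in them too. Over sums of these cells the median log2 difference was -0.86 for the 48 genes tested, of which 47 were below 0, and without the cells under at least 2 lists it was -0.86 for the 49. In old A 65.1% of cells counted under the B and plasma cell list, and Igkc was detected in 96.5% of all its cells.

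The genes also varied together from cell to cell. Across the cells of a pool, the correlation of a gene's log UMI level with that of the other 48 summed was on average over the 4 pools highest for Birc5 (Pearson r 0.701) and lowest for Kif23 (0.224). Among genes outside the list, of 10733 genes with a UMI in at least 1% of cells of every pool, the 10 nearest to the summed level were Hmgb2 (mean r 0.635), 2810417H13Rik (0.572), Cks2 (0.570), Cks1b (0.568), Neil3 (0.565), H2afz (0.555), Casc5 (0.553), Lockd (0.551), Knstrn (0.547) and Tk1 (0.539). All points share the depth of their cell, so these values are descriptions.

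Within the dividing class alone, the 1176 pairs of the 49 genes had a median r of 0.237, and 393 were above 0.3. The highest were Ube2c with Cenpa (0.779), Cdc20 with Cenpa (0.753), Ccnb2 with Cenpa (0.743) and Cdc20 with Ube2c (0.736), which pair a cyclin B gene, the genes for its destruction and a centromere gene. The lowest were Cenpa with Spc24 (-0.155), Pbk with Cenpa (-0.144), Ccnb1 with Spc24 (-0.120) and Ccnb1 with Pbk (-0.113). By the log2 measure with 1 CPM added, Ube2c also had the largest difference between the class and the replication-only cells, and Spc24 was among those with the smallest.

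**Figure D5:**
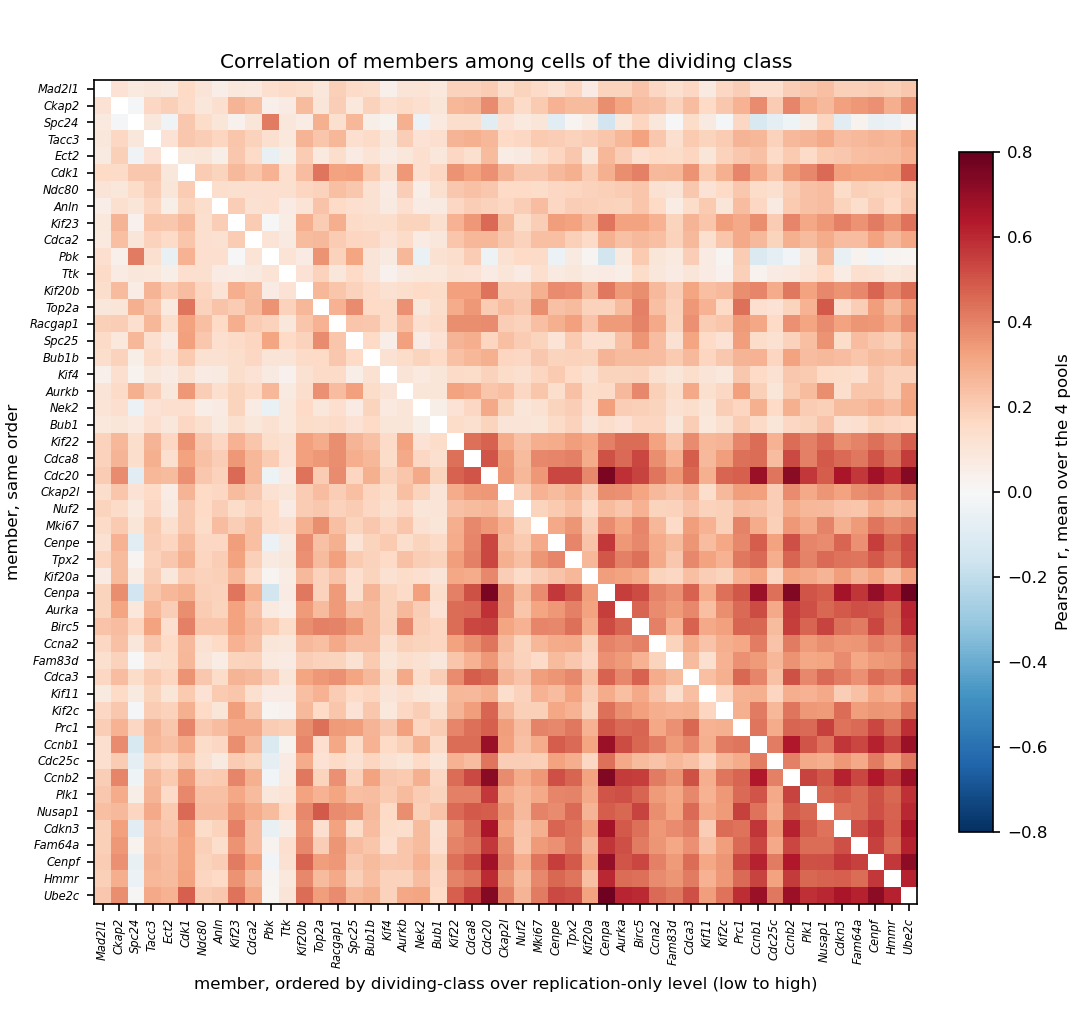
Pearson correlation, mean over the 4 pools, of each pair of the 49 genes among cells of the dividing class (colour, -0.8 to 0.8). Genes on both axes are ordered by the log2 level in the class minus that in replication-only cells, with 1 CPM added to each level. The highest values are those of Cenpa with Ube2c, Cdc20 and Ccnb2. Ube2c closes the order, while Cdc20 (3.52) lies just below its median of 3.55. The rows of Spc24 and Pbk hold values near or below 0 against Cenpa, Ube2c, Cdc20 and Ccnb2, but 0.17 and 0.25 against Nusap1 (4.49).

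Kif23 stood apart from the other genes on several of these measures. Its UMIs fell in the dividing class for 46.6% in young A, 37.5% in young B, 31.0% in old A and 52.3% in old B, and it was detected in 12.3%, 14.5%, 7.26% and 4.63% of the cells outside the class. Its level was 32.9, 38.3, 14.997 and 9.69 CPM in Procr-positive Cd48-negative cells and 32.5, 26.6, 16.2 and 19.0 CPM in Cd48-positive cells of young A, young B, old A and old B. The level in the second gate over that in the first was on average 1.18, the lowest of the 49, for which the median was 3.26 and the highest, of Bub1, 5.45. In the class Kif23 was at 79.2, 73.6, 61.8 and 58.7 CPM, and outside it at 21.6, 23.1, 12.8 and 6.5 CPM, and in both sets the old pools were below the young pools.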

How the data were processed

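HSPCs of 2 young and 2 old pools were profiled with 3' droplet libraries (10x Genomics, v2 reagents). The authors deposited UMI counts per gene and cell, made with Cell Ranger 2.2.0 (GRCm38.p4 and mm10 in the submitters' processing notes). Young B and old A were read more deeply per cell than young A and old B. The annotation they counted was not given in the sources used here. Cells outside 2 SD of log UMI were left out, as in the study, with no separate doublet caller.

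Counts summed per pool were tested in edgeR 4.0.16 (filterByExpr, TMM, quasi-likelihood, Benjamini-Hochberg over all genes tested) with the platform letter, which the study kept as a grouping variable, as replicate block. Pools of 1 letter deviated together from their age mean (r 0.488 over 13555 genes). Fits were also run on simulated counts with the same dispersion for every gene, a check of the code that cannot speak to the spread between these pools. The genes, lists and groups were chosen with earlier results of these data known. Values in every pool are printed for genes past the threshold over whole pools and the 2 of each role group with the highest mean CPM, and other genes are named as extremes of a measure after their values were seen. Outside genes are named if past the threshold (up to 5 a list) or among the 10 nearest by correlation of log(1 + UMIs per 10000). A cell counted under a lineage list with at least 2 of its 5 genes. Alternatives were no block, DESeq2 1.42.0, RLE scaling, other filters and class thresholds, thinning and leaving out pools or cells. Gene positions are from GENCODE M21, in which 10 of the 49 genes overlap a coding gene on the opposite strand, among them Ccna2, Cdc20 and Ube2c, and 7 another gene on the same strand.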

Additional observations from a re-analysis of the deposited data

Results flagged for a closer look

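The age effect differed between the gates, by the test of the difference itself, for 14 of the 49 mitosis and spindle genes, where 1.35% of all genes tested passed in that direction. The log2 difference of old against young in Cd48-positive cells minus that in Procr-positive Cd48-negative cells was 1.12 for Pbk, 0.91 for Top2a, 0.92 for Cdca3, 0.71 for Cdk1 and 0.79 for Cenpa. For the checkpoint gene Mad2l1 it was 0.79, and for Birc5 0.62, Aurkb 0.88, Cdca8 0.69 and Spc24 0.57. The motor Cenpe had 0.99, Nusap1 0.78, Mki67 0.69 and Nuf2 1.01. Depth and the number of cells differed between the gates as given above, and with cells thinned to 3000 UMIs 2 of the 14 passed the threshold, with the difference above 0 for all 14.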

How the results depend on the processing

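Over whole pools 1 of the 49 genes was called, and the count was 0 without the replicate block, 0 without cells under at least 2 lineage lists, 0 without any 1 pool, 2 with DESeq2 (Top2a among them, adjusted p = 0.0128) and 4 with no filter on low counts. Kif23 had an adjusted p of 0.238 without the replicate block and 0.0949 without the cells under at least 2 lists. The counts over all genes moved too, from 275 called to 543 with DESeq2, 774 with no filter and 0 without the block. Outside the dividing class 1 of the 49 was called at a class minimum of 4 genes in place of 6. In Procr-positive Cd48-negative cells the count ranged from 0 to 1 over the fits without 1 pool, with 1 without young A. Between the gates it was 2 with thinned cells and 5 to 21 without 1 pool, alternatives chosen after seeing the data. The causes of these moves were not tested. Direction was followed over whole pools for 13 genes, namely Kif23 and the 2 of each role group with the highest mean CPM. These 13 and the 14 called between the gates kept their direction in every fit. It was not followed for the other genes with printed values, Ccnb1, Ccna2, Nek2 and Ect2. Of these, Ccna2, Nek2 and Ect2 had a lower CPM in young B than in old A. Among all 49, the difference between the gates was below 0 for 1 or 2 genes without 1 pool and for 7 of 48 with thinned cells, against 0 in the fit reported. The median log2 difference of the 49 genes stayed between -1.02 and -0.47 over whole pools (13 settings), -1.24 and -0.71 in Procr-positive Cd48-negative cells, -0.52 and -0.04 in Cd48-positive cells, and -0.16 and 0.16 inside the class, where it has no fixed sign. With 2 pools per age no permutation test can go below p = 0.333.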
